A study of Rattus norvegicus with 15 samples.

Results

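Glutathione transferases, quinone reductases and metallothionein were described in rat gastrocnemius, the large calf muscle, after early protein restriction and after later feeding on a control diet. The set holds 10 genes: Gsta1, Gsta4, Gstm1, Gstm2 and Gstp1, which encode glutathione transferases, Nqo1 and Nqo2, which encode quinone reductases, the metallothionein gene Mt2A, Gclc and Gpx1. Every probe set whose only gene symbol was one of these names was taken, which gave 11 probe sets of the 31042 tested and 10 genes of the 14217 that have a probe set of their own. Gclc had 2 probe sets and each other gene had 1. The genes were chosen from measured values of these same arrays, with the differences of both comparisons known, so the values of the members are given as a description and support nothing by themselves.

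Glutathione transferases join the thiol of glutathione to reactive lipids and other electrophiles, and glutamate-cysteine ligase, whose catalytic subunit is encoded by Gclc, runs the rate-limiting step in making glutathione. Quinone reductases convert quinones to hydroquinones, Gpx1 encodes a selenium-containing enzyme that uses glutathione to reduce hydrogen peroxide, and metallothioneins are small cysteine-rich proteins that bind zinc and copper. Many of these genes are known targets of the transcription factor NRF2, which binds antioxidant response elements and is held in check by KEAP1, while metallothionein genes respond to metals through the factor MTF1 at metal response elements and also to glucocorticoids.

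All arrays came from male Wistar rats bought at 3.5 weeks of age and fed 15% casein for 3 days. CN rats (n = 4) then received 15% casein for 4 weeks, and LP rats (n = 4) received 8% casein with matched calories for the same 4 weeks. CN-R rats (n = 3) and LP-R rats (n = 4) had these respective diets for 4 weeks, were then fed the control diet, as the methods describe it, and were sampled on day 84. The sample labels instead state that both kept their earlier diets, and the diets of the methods are used here. Every rat was sampled after a fast of 16 h, each array holds the muscle of 1 rat, and the rats were picked because their body weight lay near the mean of their group. CN-R replicate 3 is not used here. CN-R replicate 4 has a treatment field that names protein restriction, whereas its title and description name the control condition, so it was kept in CN-R and the difference of each member in the later rats is also given without it.

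Values are log2 signals from the array, and a difference of 1 is a doubling. CN and LP were summarized together, CN-R and LP-R were summarized together, and levels are therefore not compared between these sets of arrays. In the summarization used by the authors, probes that show no common variation leave their probe set at 1 fixed value on all arrays, called constant here. Only 12.8% of probe sets varied in the CN and LP arrays, with a standard deviation over 0.01, and 9.99% in the CN-R and LP-R arrays. Signals ran from 5.24 to 14.07 in the earlier set and from 5.38 to 14.16 in the later one. The tissue label was checked on 12 muscle fiber markers, and all of them lay high in this range, among them Acta1 (14.07 to 14.16), Ckm (14.03 to 14.05), Myh4 (13.40 to 13.41) and Myh1 (11.44 to 11.59), each on the probe set of the gene with the highest mean. Other probe sets of these genes could lie lower, such as 1 of Myh1 with group means of 8.50 to 8.99. In LP against CN, rank products called 4 of 11 measured endothelial markers and 3 of 11 adipocyte markers higher, 2 of 12 fibroblast markers lower, and none of 12 macrophage, 12 fiber or 4 red blood cell markers, although the alpha globin gene Hba-a3, which was not on the last list, was called lower (-0.09, SE 0.04). The mean of the varying endothelial markers spanned 8.22 to 8.46 in LP and 8.16 to 8.27 in CN, that of adipocyte markers 7.93 to 8.75 and 7.94 to 8.35, and that of fibroblast markers spanned 10.89 to 11.16 in CN, with all LP arrays inside this range. Their part in the results for the members was not tested, and in whole muscle, fewer cells of a type and less RNA per cell cannot be told apart.

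The upstream sequence of Mt2A is shown because it holds matches to both kinds of element named above, as does that of Gstp1. Promoter sequences of all 10 members were found in RefSeq (GRCr8), each as 250 bases before and 50 bases after 1 transcript start. For 3 members (Mt2A, Nqo1 and Gpx1) this start is the outer edge of the annotated gene. For the other 7 it lies inside the annotated gene, which extends further, so that "before the start" refers to the start used in these windows and not to the edge of the gene. The antioxidant response element core was searched as TGACNNNGC and the metal response element core as TGCACNC or TGCGCNC, on both strands. Mt2A lies on chromosome 19 from 10837934 to 10838708 on the minus strand, and the 250 bases before its start are chr19:10838709-10838958, written here 5′ to 3′ along the gene. Capitals mark 1 match to the antioxidant core, which comes first, and then 4 matches to the metal core, none of which overlap.
Mt2A upstream: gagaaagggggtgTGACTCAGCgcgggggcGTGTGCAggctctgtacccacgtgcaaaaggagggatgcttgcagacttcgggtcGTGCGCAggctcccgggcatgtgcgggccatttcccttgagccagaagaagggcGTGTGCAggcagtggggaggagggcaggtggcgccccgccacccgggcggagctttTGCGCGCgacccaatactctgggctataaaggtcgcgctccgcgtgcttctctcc

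The antioxidant match of Mt2A began 237 bases before the start, and its metal matches began 220, 165, 111 and 55 bases before it. At least 4 metal matches were found in 0.439% of the 33469 rat promoters of the same length. Gstp1 holds the same 9 letters of the antioxidant core as Mt2A, beginning 61 bases before the start used, which lies 537 bases inside the outer edge of the gene, and 30 bases around it on the minus strand, chr1:210769747-210769776, are shown with the match in capitals.
Gstp1 match: tccactgtgtTGACTCAGCatccggggcgg

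Among the members, 3 of 10 promoters held the antioxidant core (Mt2A, Gstp1 and Gsta1) against 12.1% of all promoters. The match of Gsta1 lay after the start. Metal cores stood in 4 of 10 members (Mt2A, Gsta4, Gstp1 and Nqo2) against 24.2% of all promoters. A match of letters is a description and does not show that a factor binds there, and the lack of one covers only these windows.

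The first comparison asked how 4 weeks on 8% casein changed these genes. Of the 11 probe sets, 7 varied, and rank products called 2 higher (Nqo2 and Gstp1) and 4 lower (Mt2A, Gsta1, Gstm2 and Nqo1) in LP than in CN. Over all 14217 genes, 2.80% were called higher and 2.56% lower. Most probe sets were constant, and by probe set 570 were called higher and 519 lower beside 3974 that varied. The groups did not overlap for Mt2A, Nqo2 and Gsta1, against 7.90% of varying probe sets over the whole array. Gpx1 varied without being called, and Gsta4, Gstm1 and both probe sets of Gclc were constant. The sizes were small, from 0.15 to 0.31 on the log2 scale in the 6 that were called.

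Mt2A is the metallothionein of the set. Its log2 signals in CN were 8.59, 8.64, 8.37 and 8.39 (replicates 1 to 4). In LP they were 8.20, 7.98, 8.25 and 8.31. Every LP rat lay below every CN rat, with LP replicate 2 the lowest, while CN replicates 1 and 2 stood above CN replicates 3 and 4. The mean was 8.18 ± 0.14 (SD, n = 4) in LP and 8.50 ± 0.14 (SD, n = 4) in CN, a difference of -0.31 with a standard error of 0.10, or 1.24-fold lower. The difference was -0.53 among replicates 1 and 2 and -0.10 among replicates 3 and 4. No batch is named for these numbers, and its call was kept without any single array.

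Both quinone reductases varied, and they were called in opposite directions. Nqo2 encodes the enzyme that takes electrons from dihydronicotinamide riboside rather than from NADH or NADPH. Its log2 signals in CN were 7.85, 8.02, 7.90 and 7.87. In LP they were 8.28, 8.12, 8.23 and 8.20. All LP rats lay above all CN rats, and the spread within each group was small. The mean was 8.21 ± 0.07 (SD, n = 4) in LP and 7.91 ± 0.08 (SD, n = 4) in CN, a difference of 0.30 with a standard error of 0.05, or 1.23-fold higher. The call was kept without each array in turn, with differences of 0.27 to 0.33, and the difference was 0.26 among replicates 1 and 2 and 0.33 among replicates 3 and 4.

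Nqo1 encodes the NAD(P)H quinone reductase that is widely used as a readout of NRF2. In CN its log2 signals were 7.12, 7.02, 7.13 and 7.16. LP gave 6.80, 6.97, 6.99 and 7.06. The groups overlapped, as LP replicate 4 lay above CN replicate 2, and LP replicate 1 was the lowest. With means of 6.95 ± 0.11 (SD, n = 4) in LP and 7.11 ± 0.06 (SD, n = 4) in CN, the difference was -0.15 with a standard error of 0.06. The call was lost when any 1 of LP replicates 1, 2 and 3 or CN replicates 1, 3 and 4 was left out, and the difference was -0.10 without LP replicate 1.

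**Figure D1:**
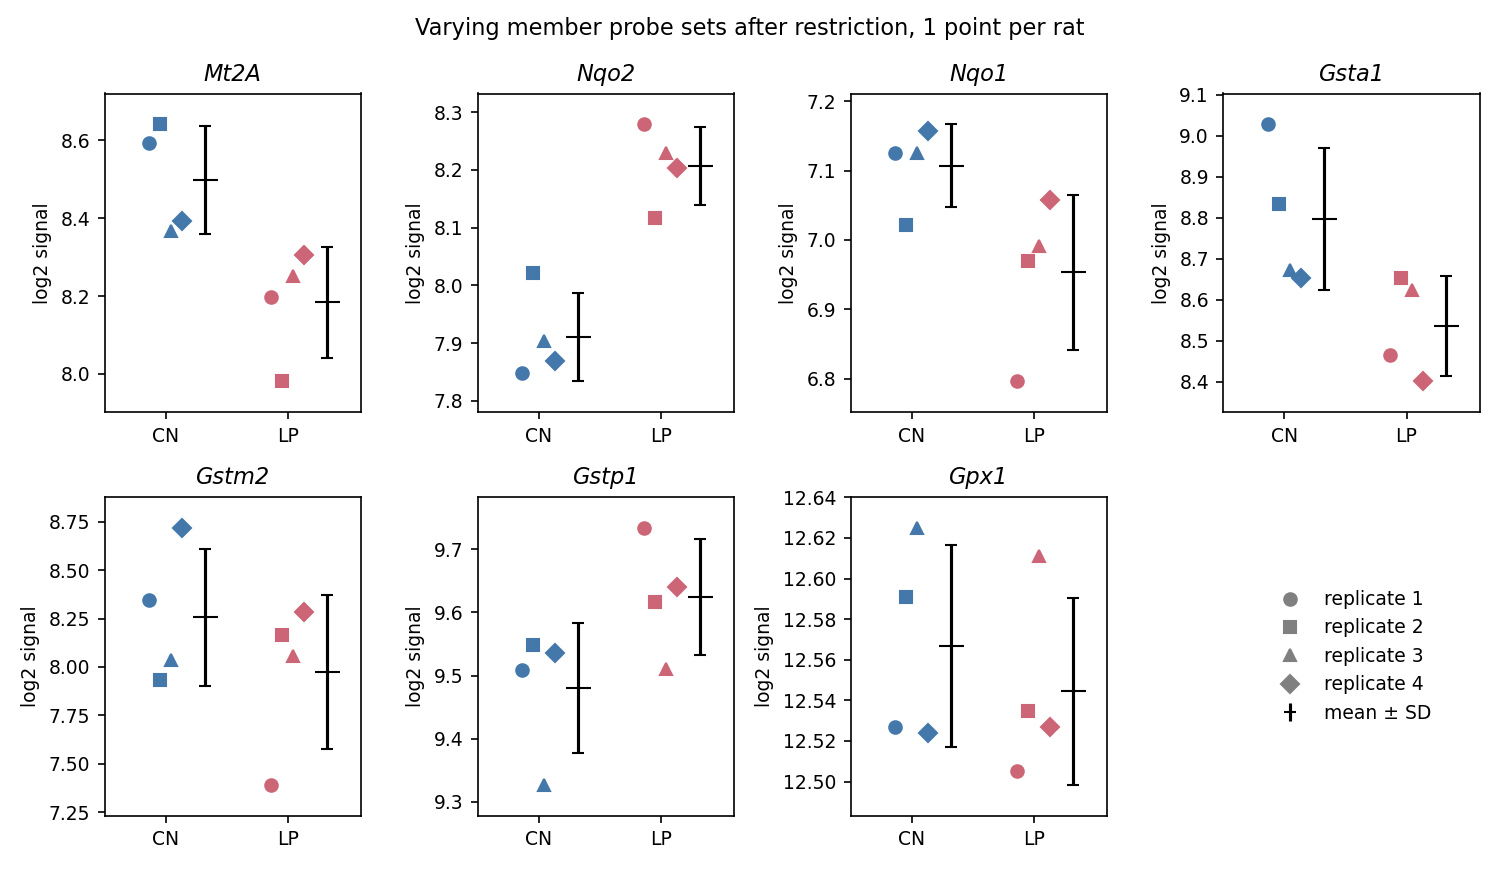
Log2 signal of the 7 varying probe sets in the CN (blue) and LP (red) arrays, with 1 point per rat, marker shape for the replicate number and a bar for mean ± SD (n = 4 each). Axes differ between panels and do not start at 0. The groups are apart for Mt2A and Nqo2, touch for Gsta1 at 8.65, and overlap for Nqo1, Gstm2, Gstp1 and Gpx1.

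Among the glutathione transferases, Gsta1 and Gstm2 were called lower and Gstp1 higher. Gsta1 belongs to the alpha class, whose members reduce lipid hydroperoxides in addition to conjugation. Its log2 signals in CN were 9.03, 8.83, 8.67 and 8.65. In LP they were 8.47, 8.65, 8.62 and 8.40. The groups did not overlap, but the lowest CN value, 8.654, and the highest LP value, 8.653, were nearly equal, and CN replicate 1 stood highest. The mean was 8.54 ± 0.12 (SD, n = 4) in LP and 8.80 ± 0.17 (SD, n = 4) in CN, a difference of -0.26 with a standard error of 0.11. Without any 1 array it ran from -0.31 to -0.18 and the call was kept. It was -0.37 among replicates 1 and 2 and -0.15 among replicates 3 and 4.

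Gstm2 is a mu class transferase with known expression in muscle. CN log2 signals were 8.34, 7.93, 8.04 and 8.72. LP log2 signals were 7.39, 8.16, 8.06 and 8.28. Most of both groups lay in the same range, and LP replicate 1 at the bottom and CN replicate 4 at the top lay apart from it. The difference between 7.97 ± 0.40 (SD, n = 4) in LP and 8.26 ± 0.35 (SD, n = 4) in CN was -0.28, with a standard error of 0.27 that was nearly as large. It was -0.09 without LP replicate 1, -0.13 without CN replicate 4 and -0.25 without CN replicate 1, and in each of these cases it was no longer called.

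Gstp1 encodes the pi class transferase. CN log2 signals were 9.51, 9.55, 9.33 and 9.54, and in LP they were 9.73, 9.62, 9.51 and 9.64. LP replicate 3 lay inside the range of CN, and CN replicate 3 was the lowest of all. The means of 9.63 ± 0.09 (SD, n = 4) in LP and 9.48 ± 0.10 (SD, n = 4) in CN differed by 0.15 with a standard error of 0.07. Of the members it was the closest to the threshold, with an estimated proportion of false positives of 0.0393 against the limit of 0.05. Leaving out any 1 array other than LP replicate 3 removed the call, and the difference fell to 0.09 without CN replicate 3 and to 0.11 without LP replicate 1.

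Gsta4, which acts on 4-hydroxynonenal from oxidized lipids, had a single value of 6.75 on all 8 arrays of CN and LP. Gstm1, another mu class gene, stood at 7.17 on all 8. The probe sets of Gclc stood at 6.78 and 7.02. For these probe sets the summarization found no common variation, so no difference was measurable and none is claimed to be absent. Alpha and mu class genes are close paralogs, and RefSeq holds older names of other alpha class genes under Gsta1, so cross-hybridization between them was not tested and the gene behind a signal is uncertain to that extent.

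Gpx1 varied very little. Its log2 signal was 12.53, 12.59, 12.62 and 12.52 in CN. In LP it was 12.50, 12.54, 12.61 and 12.53. The groups lay within the same narrow range, and the difference was -0.02 with a standard error of 0.03.

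The rank product calls were not shared by limma. It tests each probe set against its own spread, after drawing that spread toward a value estimated over all probe sets. limma called 0 of 31042 probe sets (0%), with 2342 at an unadjusted p under 0.05, among them 4 varying members. That count takes in constant probe sets too, so it is not a number of measured differences. The limma adjusted p for the varying members ran from 0.525 for Nqo2 to 0.914. When rank products were fitted on the varying probe sets alone, none of the 6 member calls was kept.

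Genes of the same pathways, taken over all lists together, had calls in both directions. Within lists, glutathione synthesis and recycling and metal handling had lower calls alone. The lists were drawn up with earlier results of these arrays known, and the median difference of all 2425 varying genes was 0.0252. Of 20 other glutathione transferases measured, 7 varied, 3 were called higher and 1 lower, with a median of 0.00 over the varying genes. Gstm4 (0.48, SE 0.25), the microsomal transferase gene Mgst1 (0.39, SE 0.25) and Gstm5 (0.17, SE 0.13) were called higher, and Gstt2 (-0.16, SE 0.09) lower. Mu class genes were thus called in both directions, Gstm2 lower and Gstm4 and Gstm5 higher.

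In glutathione synthesis and recycling, 6 of 19 measured genes varied, none was called higher and 2 were called lower, with a median of -0.06. They were Gclm (-0.18, SE 0.06), the modifier subunit of glutamate-cysteine ligase and partner of Gclc, and Chac1 (-0.32, SE 0.21), which breaks glutathione down. Of 24 peroxidase and thioredoxin genes, 8 varied, with a median of 0.01. Extracellular superoxide dismutase Sod3 was called higher (0.16, SE 0.05), with no overlap between groups. Plasma peroxidase Gpx3 (-0.15, SE 0.07) and sulfiredoxin Srxn1 (-0.13, SE 0.35) were called lower, the last with an error larger than its difference and a second varying probe set at -0.12 (SE 0.10) that was not called.

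Of 29 genes of the NRF2 pathway and its other targets, 11 varied, 1 was called higher and 3 lower, with a median of -0.01. Sqstm1, which encodes p62, a protein that binds KEAP1, was called lower on the 2 of its 4 probe sets that varied (-0.21, SE 0.02, with no overlap, and -0.25, SE 0.10). By limma the stronger of these had an adjusted p of 0.463. The exporter gene Abcc1 (-0.17, SE 0.09) and Keap1 itself (-0.12, SE 0.04, on 1 of 2 probe sets, the other constant) were also called lower, and Aldh1a1 (0.46, SE 0.34) higher. Of the members, the known NRF2 targets Nqo1 and Gstp1 were likewise called in opposite directions.

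Among 27 genes of metal handling, 1 varied and was called lower. This was the copper-carrying ferroxidase gene Cp, at -0.27 (SE 0.12) and -0.23 (SE 0.09) on 2 of its 3 probe sets, with the other constant. Mt1, the other main metallothionein gene, was constant at 5.98, and Mtf1 was constant too, so Mt2A alone carried a signal for this family. Of 18 genes of selenium handling, 5 varied, with Selenom called higher (0.11, SE 0.03) and Selenbp1 lower (-0.28, SE 0.47) and a median of 0.03. The plot of related genes sets these differences beside their errors.

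**Figure D2:**
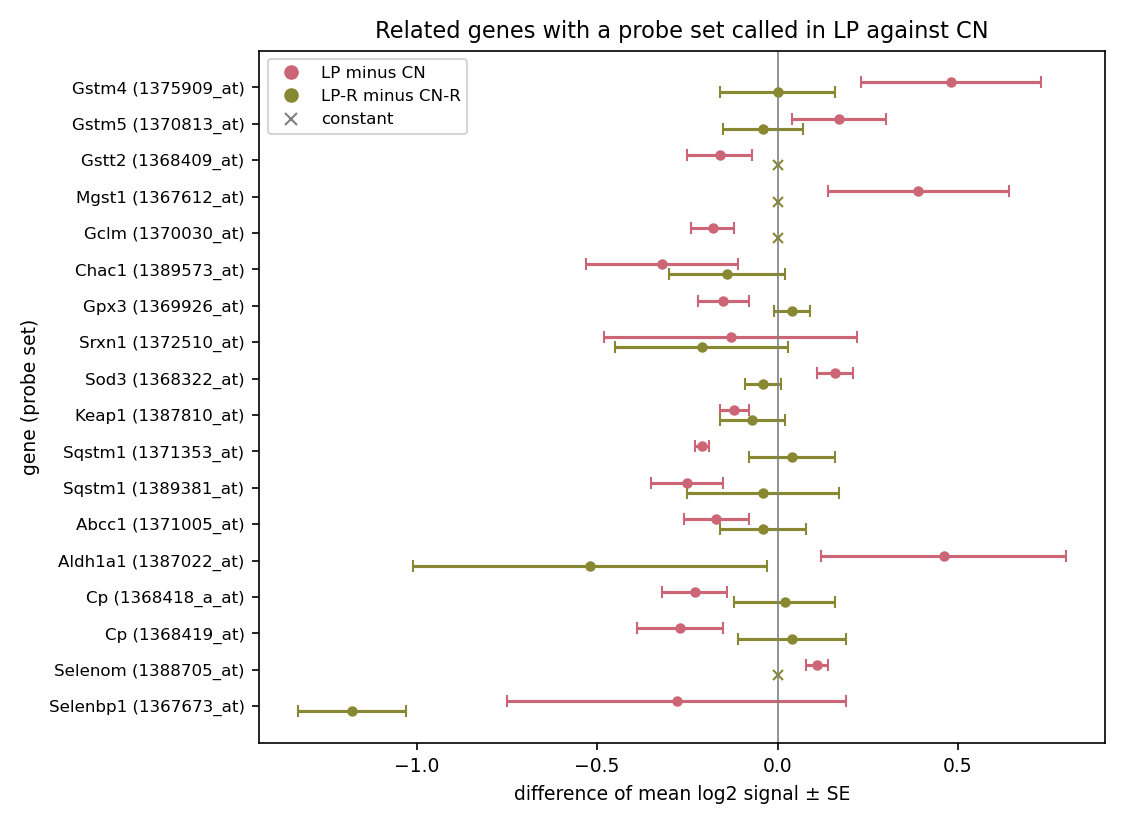
Difference of mean log2 signal (restricted minus control) ± SE for each probe set of the related gene lists called in LP against CN, with LP minus CN in red (n = 4 and 4) and LP-R minus CN-R in olive (n = 4 and 3). Crosses mark probe sets that were constant. Red points lie on both sides of 0 and most olive points lie near 0, except Selenbp1 at -1.18 and Aldh1a1 at -0.52 with its wide error.

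The second comparison asked whether differences remained in rats that had returned to the control diet. Of the 11 probe sets, 5 varied, and none was called in either direction, while over all genes 0.225% were called higher and 0.753% lower. By probe set, 64 were called higher and 154 lower beside 3100 that varied. LP-R and CN-R overlapped for all 5 varying members, against 3.84% of varying probe sets whose groups did not overlap. Nqo1 and Gstp1, which had varied in the earlier arrays, were constant here at 7.76 and 9.65, so they gave no measurable difference. Gsta4 (6.79), Gstm1 (7.21) and Gclc (6.86 and 7.04) were constant as before. limma again called 0% of probe sets, with 1566 at an unadjusted p under 0.05 and 0 varying members among them, and its smallest adjusted p was 0.539. Constant probe sets are again in that count, such as Gsta4 (unadjusted limma p of 0.032).

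Mt2A had log2 signals of 7.72, 7.78 and 7.77 in CN-R (replicates 1, 2 and 4). In LP-R they were 7.82, 7.88, 7.68 and 7.73. LP-R lay on both sides of CN-R, with a difference of 0.02 and a standard error of 0.05. It was 0.02 without CN-R replicate 4 and -0.02 without LP-R replicate 2.

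Nqo2 had log2 signals of 7.97, 8.13 and 8.17 in CN-R. LP-R gave 8.14, 8.02, 8.02 and 7.92. These ranges overlapped for most of their length, and the mean of 8.02 ± 0.09 (SD, n = 4) in LP-R lay below that of 8.09 ± 0.10 (SD, n = 3) in CN-R by less than the spread, a difference of -0.07 with a standard error of 0.07. Without CN-R replicate 4, whose labels disagree, it was -0.03.

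Gsta1 had log2 signals of 8.73, 9.26 and 8.78 in CN-R, and in LP-R of 9.05, 8.87, 8.55 and 8.71. CN-R replicate 2 stood above all others. The difference was -0.13 with a standard error of 0.20. It was -0.20 without CN-R replicate 4 and 0.04 without CN-R replicate 2, so its sign rested on that array.

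Gstm2 had log2 signals of 8.31, 8.67 and 8.52 in CN-R. In LP-R they were 8.44, 8.05, 8.41 and 8.46. LP-R replicate 2 was the lowest array by a wide gap and the remaining arrays were mixed. The difference was -0.16 with a standard error of 0.14, and -0.15 without CN-R replicate 4. It was -0.06 without LP-R replicate 2 and -0.07 without CN-R replicate 2, so most of its size rested on these arrays.

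Gpx1 came closest to a call. Its log2 signals were 12.48, 12.37 and 12.55 in CN-R, and 12.36, 12.41, 12.16 and 12.24 in LP-R. LP-R replicates 3 and 4 lay lowest, while LP-R replicate 2 lay above CN-R replicate 2. The mean was 12.29 ± 0.11 (SD, n = 4) in LP-R and 12.47 ± 0.09 (SD, n = 3) in CN-R, a difference of -0.18 with a standard error of 0.08. Its estimated proportion of false positives was 0.0547, just outside the limit of 0.05, and limma gave an adjusted p of 0.969. The difference was -0.13 without CN-R replicate 4, and without LP-R replicate 2 it was -0.21 and was called. With CN-R replicate 4 counted as LP-R it was -0.08. It was -0.04 among replicates 1 and 2, and -0.35 among replicates 3 and 4, where CN-R had 1 array.

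**Figure D3:**
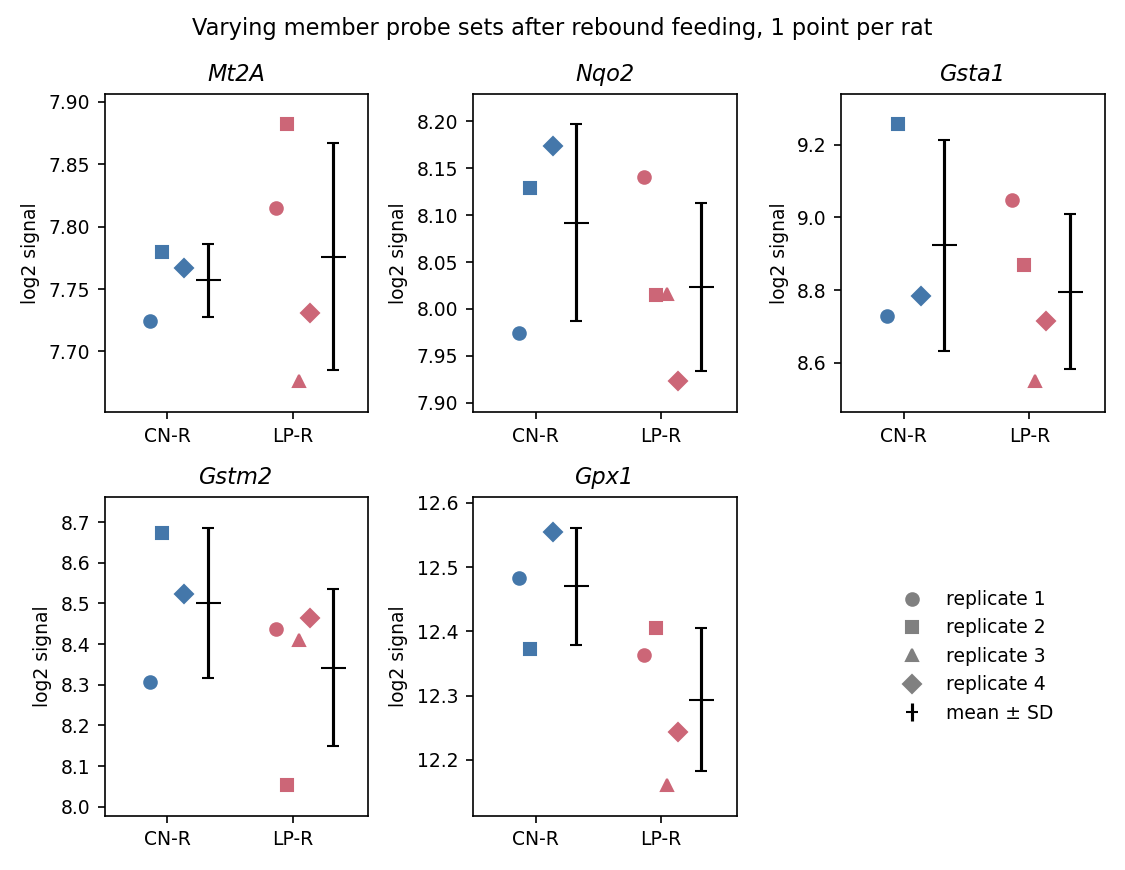
Log2 signal of the 5 varying probe sets in the CN-R (blue, n = 3) and LP-R (red, n = 4) arrays, with 1 point per rat, marker shape for the replicate number and a bar for mean ± SD. Axes differ between panels and do not start at 0. The groups overlap in every panel.

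Set side by side, Mt2A differed by -0.31 (SE 0.10) in LP against CN and by 0.02 (SE 0.05) in LP-R against CN-R. Nqo2 differed by 0.30 (SE 0.05) and by -0.07 (SE 0.07). Gsta1 differed by -0.26 (SE 0.11) and -0.13 (SE 0.20), Gstm2 by -0.28 (SE 0.27) and -0.16 (SE 0.14), and Gpx1 by -0.02 (SE 0.03) and -0.18 (SE 0.08). Whether the differences changed between the earlier and later rats was not tested, because the sets were summarized apart. No related gene of the lists was called in LP-R against CN-R apart from Selenbp1, which was lower (-1.18, SE 0.15) with no overlap. Of the cell type markers, the adipocyte gene Cfd (-0.34, SE 0.09, no overlap) and Hbb were called lower there. The macrophage gene Lyz2 (0.16, SE 0.05, no overlap) and 1 probe set of the fiber gene Myh1 (0.15, SE 0.07) were called higher. The other varying macrophage markers, C1qa (-0.08, SE 0.02) and C1qc (-0.15, SE 0.04), were lower in LP-R with no overlap but were not called. The part of these markers in the values of the members was not tested.

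**Figure D4:**
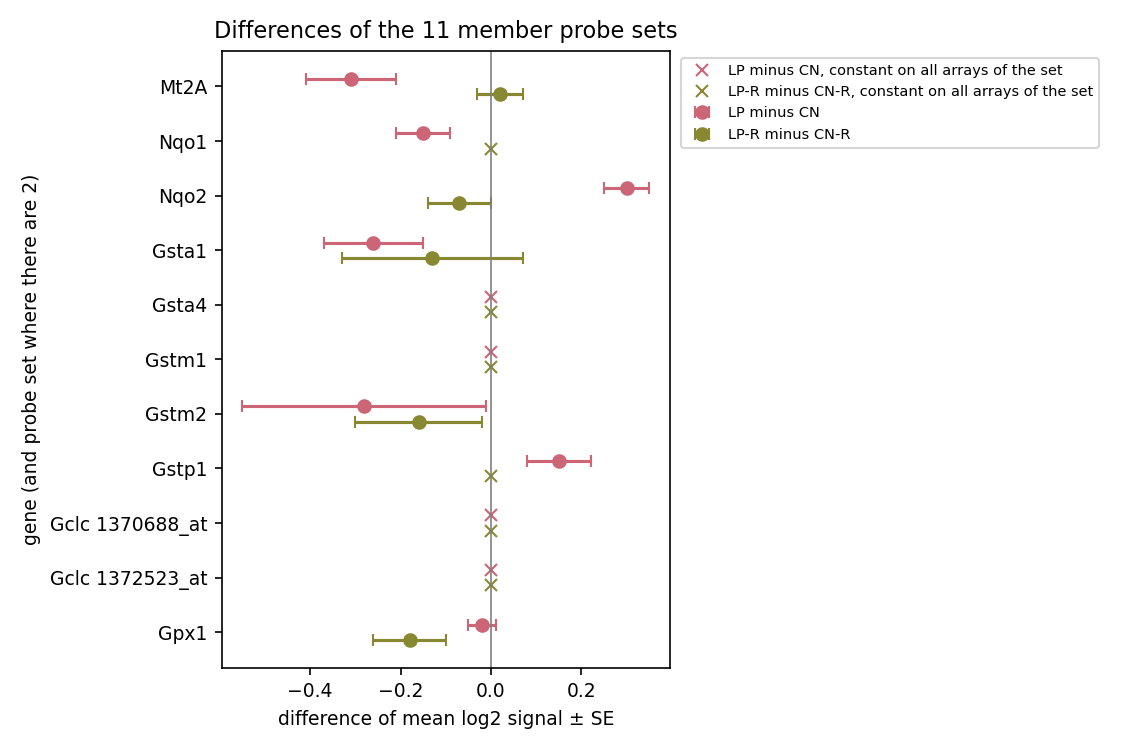
Difference of mean log2 signal (restricted minus control) ± SE of all 11 member probe sets, with LP minus CN in red (n = 4 and 4) and LP-R minus CN-R in olive (n = 4 and 3). Crosses mark constant probe sets. Mt2A and Nqo2 lie furthest from 0 relative to their error in LP against CN and near 0 in LP-R against CN-R.

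Members were also set against each other and against other genes over single arrays, as a description only. Over the 8 arrays of CN and LP, Pearson r between pairs of the 7 varying members ran from -0.83 (Nqo1 with Nqo2) to 0.86 (Gstm2 with Nqo1, with LP replicate 1 lowest for both). After centring each group these were -0.65 and 0.88, with the lowest value then -0.81 for Gstp1 with Gpx1 (-0.76 before centring), and Gstm2 with Nqo2 at -0.72. For Gsta1, the varying gene with the most similar pattern among the 1409 searched was the beta globin gene Hbb, at r = 0.84 over 15 arrays with each set centred on its own mean (0.70 in the 8 earlier arrays and 0.95 in the 7 later ones). It was followed by Hba-a3, an alpha globin gene (0.80), and by Harbi1 (0.77), Nfil3 (0.76) and Mrpl52 (0.73). Globin messages mark red blood cells and their precursors, and of the 4 red blood cell markers measured only Hbb varied, while Hba-a3, outside that list, varied too. The log2 signal of Hbb was highest on CN-R replicate 2 (12.14) and CN replicate 1 (12.04), the arrays with the highest Gsta1 in their sets.

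Hbb differed by -0.09 (SE 0.14) between LP and CN without a call, and Hba-a3 by -0.09 (SE 0.04), called lower. In LP-R against CN-R, Hbb was called lower by rank products at -0.36 (SE 0.27) and Hba-a3 at -0.26 (SE 0.15). The part of blood in the Gsta1 values was not tested. Other members had lower r with Hbb over the same 15 arrays, at -0.02 for Gstm2, 0.21 for Nqo2, 0.38 for Mt2A and 0.39 for Gpx1.

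**Figure D5:**
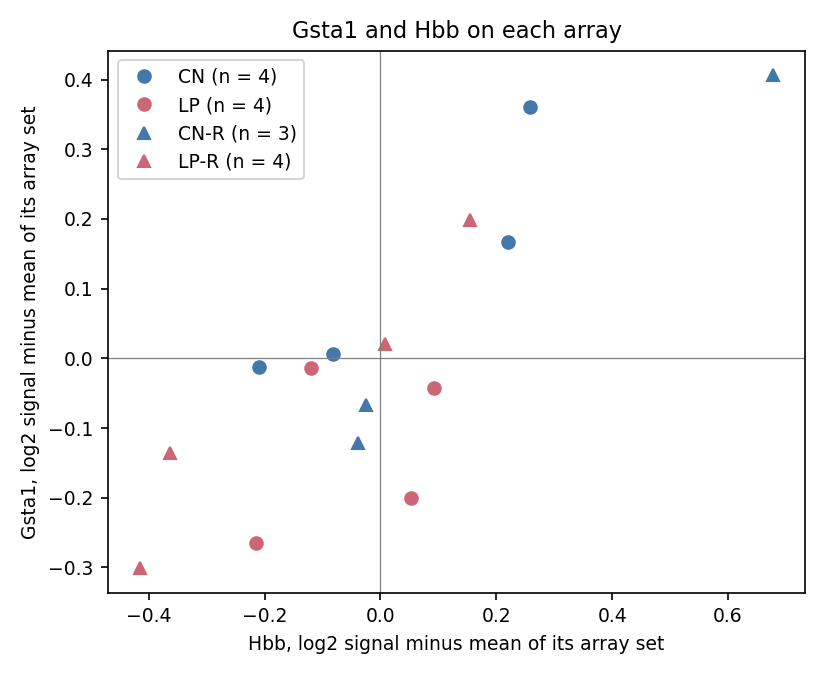
Gsta1 against Hbb on each of the 15 arrays, both as log2 signal minus the mean of the array set, with circles for CN and LP (n = 4 each) and triangles for CN-R (n = 3) and LP-R (n = 4). The points rise together (r = 0.84), and CN-R replicate 2 lies at the top right.

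For Mt2A, the closest patterns were those of Slc4a1ap (r = 0.75), Pde4d (0.72), Postn (0.71), Chodl (0.70) and Cp (0.70) over the 15 arrays. Of these, Slc4a1ap was similar in both sets (0.76 in the 8 earlier arrays and 0.67 in the 7 later ones). Pde4d (0.79 and -0.28), Postn (0.88 and 0.06), Chodl (0.82 and -0.33) and Cp (0.88 and 0.28) were similar mainly in the earlier set. There Mt2A and Cp were both lower in LP. Gstm1 was constant in both sets and had no pattern to match. Arrays of a group share their diet, and these values carry no test.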

How the data were processed

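Gastrocnemius RNA of 15 rats was measured on Affymetrix Rat Genome arrays. The deposited values are log2 signals that the authors summarized with FARMS, apart for CN with LP and CN-R with LP-R: among 26041 probe sets constant in both sets, the constant differed by over 0.01 in 94.7% (median 0.103). The version of FARMS is not given in the sources used here. No scanner files were used. Genes were named from the platform annotation, which can be old: of 31042 probe sets, 20826 had 1 symbol, 436 several and 9780 none, and 57 control probe sets were left out.

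Groups came from titles. Rank products over all pairs of arrays were fitted on all 31042 probe sets with 100 permutations, after the methods of the study, and a probe set was called at a proportion of false positives up to 0.05. A gene was called if any of its probe sets was. Deviations from the mean of each probe set were permuted, a choice made after seeing the data, since permuting the levels themselves gave uneven null distributions for 4 against 3 arrays. limma 3.58.1 (R 4.3.3) with Benjamini-Hochberg adjustment was run beside it, and numpy 2.4.6 and scipy 1.17.1 were used under Python 3.11.15. Rank products and limma were tested on simulated data with known changes. The rank product test set a limit on the changes recovered but none on false calls.

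The members and gene lists were chosen with earlier results of these data known. Named were all members, up to 6 called genes per list with the largest differences first, and the 5 genes most like Mt2A, Gstm1 and Gsta1. Alternatives covered normalization, a filter on dim probe sets, varying probe sets alone, limma, replicate pairing, replicate numbers 1 and 2 apart from 3 and 4, the doubtful CN-R array and each array left out. Arrays give no read depth, and their number limits the precision. Each rat is 1 array, so limma p-values measure the spread between rats. The proportion of false positives of rank products does not, since its null came from values permuted across probe sets within each array.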

Additional observations from a re-analysis of the deposited data

Results flagged for a closer look

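Gstm2 in LP-R replicate 2 had a log2 signal of 8.05, whereas the nearest other LP-R rat stood at 8.41, a gap of 0.868 of the whole range of the 4 values. This was 1 of 19 groups of 4 arrays examined for the members, and chance gives such a gap in about 1 in 20 groups. Without that rat, the difference of Gstm2 between LP-R and CN-R was -0.06 in place of -0.16, and no member other than Gpx1 was called in LP-R against CN-R.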

How the results depend on the processing

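In LP against CN, 1089 probe sets were called (570 higher, 519 lower), 6 of them members. Leaving out each array in turn gave 388 to 685 and 3 to 5 members. A filter on dim probe sets gave 345, varying probe sets alone 33 with 0 members, and limma 0 with 0 members. In LP-R against CN-R, 218 were called (64 higher, 154 lower) and 0 members. Leaving out arrays gave 21 to 214 and 0 to 1 members, with 29, 21 and 34 called without CN-R replicate 1, 2 or 4. The dim filter gave 80, varying probe sets alone 7, CN-R replicate 4 counted as LP-R 38, and limma 0. Permuting levels gave 107 higher and 53 lower, against 64 and 154.

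Mt2A, Nqo2, Gsta1 and Gstm2 kept their calls in LP against CN under 6 of 9 alternatives, all but varying probe sets alone and both limma fits. Gstm2 did so with an error (0.27) nearly as large as its difference (-0.28), and it lost its call without some single arrays. Gstp1 was lost under quantile normalization, and Gstp1 and Nqo1 under the dim filter. The difference of Nqo2 in LP-R against CN-R was 0.00 with CN-R replicate 4 counted as LP-R. Over single arrays left out, Gsta1 there ran from -0.22 to 0.04 and Mt2A from -0.02 to 0.05. The causes were not tested.

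Same-numbered arrays did not deviate together in every pair (r = 0.55, -0.03, 0.17 and 0.40 for LP with CN, 0.04, 0.19 and 0.22 for LP-R with CN-R), so the numbers were not taken as pairs in the main fits. Arrays of unlike number ran from -0.54 to 0.33 for LP with CN and from -0.32 to 0.28 for LP-R with CN-R. The values of 0.55 for replicate 1 and 0.40 for replicate 4 lay above all of these. Whether arrays of the same number share a batch was not tested. With the replicate number as a block, limma called 0 probe sets and 0 members in both comparisons. Rank products within pairs called 704 higher and 501 lower, and 44 and 134.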
